A study of Homo sapiens with 12 samples.

Results

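The genes described here encode the neurotrophin receptors NGFR, NTRK2, NTRK3 and SORT1, the neurotrophin BDNF, and the receptor kinase RET with its co-receptor GFRA1 and ligand GDNF. These 8 genes were taken by symbol from the 58302 genes of the deposited tables. They were picked with their SAHA responses and their levels under DMSO already known, so their own values, and the calls the fit made on them, are given as a description with no p and support nothing. The RNA came from H1299 and H1703 cells, both established human lines grown from non-small-cell lung cancers, kept for 24 h in SAHA or in its vehicle DMSO. SAHA (vorinostat) is a histone deacetylase inhibitor, a drug that keeps acetyl groups on histones and on other proteins. Each line thus gave a DMSO group and a SAHA group, 4 groups in all, and each group had 3 libraries. The labels list SAHA at 0, 2.5, 10 and 40 µM against 0.1% DMSO but do not tie a dose to the sequenced samples. The labels do not say whether replicates were separate cultures, so each p-value is set against a spread between libraries that may be technical only.

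Neurotrophins are secreted growth factors of the nervous system, made as precursors and cut to the mature form. Mature BDNF binds the receptor kinase TrkB, the product of NTRK2, while TrkC, the product of NTRK3, binds NTF3. NGFR encodes p75, a receptor without a kinase that binds all neurotrophins and that joins sortilin, the product of SORT1, to bind their precursors. RET signals when GDNF is held by GFRA1 at the cell surface. These receptors are best known from neurons and their progenitors, and RET and TRK kinases are also drug targets in lung cancer when they are fused to other genes.

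Start regions are shown for the 5 members whose RefSeq window held a long enough stretch before the gene start. RNA of RET, NTRK3 and GDNF was at 0 counts in a DMSO group. SORT1 and BDNF were read in every library, as were GFRA1 and NGFR, which are not shown. The sequences come from RefSeq on GRCh38.p14, run 5′ to 3′ on the gene's strand, and end before the gene start of the deposited tables. Capitals mark matches to the GC box GGGCGG or its reverse complement CCGCCC, of which GDNF has none. The stretches lie at chr10:43076819-43077026 (plus strand) for RET, chr15:88256792-88256989 (minus) for NTRK3, chr5:37840042-37840291 (minus) for GDNF, chr1:109397952-109398168 (minus) for SORT1 and chr11:27722059-27722280 (minus) for BDNF.
RET: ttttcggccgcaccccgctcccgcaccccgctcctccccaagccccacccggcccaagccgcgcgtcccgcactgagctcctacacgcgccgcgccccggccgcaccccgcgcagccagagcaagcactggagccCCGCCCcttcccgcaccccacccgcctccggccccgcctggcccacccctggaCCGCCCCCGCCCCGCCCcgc
NTRK3: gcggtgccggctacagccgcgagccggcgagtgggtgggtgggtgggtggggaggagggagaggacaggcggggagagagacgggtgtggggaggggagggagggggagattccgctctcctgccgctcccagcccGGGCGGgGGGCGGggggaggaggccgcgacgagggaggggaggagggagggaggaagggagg
GDNF: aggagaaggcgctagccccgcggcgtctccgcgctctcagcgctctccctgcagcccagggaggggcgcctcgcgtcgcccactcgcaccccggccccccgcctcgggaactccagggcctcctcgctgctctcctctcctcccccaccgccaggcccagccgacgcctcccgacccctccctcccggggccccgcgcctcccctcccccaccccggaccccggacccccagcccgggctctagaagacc
SORT1: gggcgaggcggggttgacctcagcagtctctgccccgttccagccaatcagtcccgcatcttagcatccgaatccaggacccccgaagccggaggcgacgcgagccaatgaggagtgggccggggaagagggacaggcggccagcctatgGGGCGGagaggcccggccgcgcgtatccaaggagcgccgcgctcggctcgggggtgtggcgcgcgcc
BDNF: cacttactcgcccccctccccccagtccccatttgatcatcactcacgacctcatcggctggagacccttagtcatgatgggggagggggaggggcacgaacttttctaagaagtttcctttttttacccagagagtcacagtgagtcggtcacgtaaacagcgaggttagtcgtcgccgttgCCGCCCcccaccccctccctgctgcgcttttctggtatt

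In the full windows of 300 bases, from 250 before to 50 after the RefSeq start, RET held 5 GC boxes, SORT1 held 3, NTRK3 and BDNF held 2 each, and NTRK2 held 1. GFRA1 and GDNF held none. The window nearest the deposited gene start was taken where RefSeq gives several starts, and NGFR had no entry. The RefSeq start taken still lay 992 bases from the deposited gene start for GFRA1, 755 for NTRK2 and 355 for GDNF. For BDNF, NTRK3, SORT1 and RET it lay 28 to 42 bases away. Over all 34943 windows of this length, 44.9% held a GC box on either strand. CpG dinucleotides numbered 41 in RET, 41 in SORT1, 32 in GDNF, 30 in NTRK3, 25 in GFRA1, 18 in BDNF and 10 in NTRK2, against a median of 14 over all windows. No match was found in any of the 7 windows to the TATA box TATAAA, which 11.6% of all windows hold, to the cAMP response element TGACGTCA (1.84%) or to the E-box CACGTG (7.23%). All motifs were searched on both strands and none contains another. A match is a run of letters, not a measured site.

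The count totals per library ran from 14.4M to 19.4M, and the series text gives a median of 55M reads. Mitochondrially encoded genes took 1.96 to 2.22% of counts in H1299 with DMSO and 4.0 to 4.23% with SAHA, and 5.44 to 6.27% and 8.77 to 10.93% in H1703. Of 6 epithelial markers, all 6 had 10 or more counts in each H1703 library, but only 3 did so in each H1299 DMSO library, where CDH1 (E-cadherin) was at 0. Several marker lists moved with SAHA. The neuronal and neuroendocrine markers rose in 5 of 5 tested genes in H1299 and 4 of 5 in H1703 (edgeR, adjusted p below 0.05). Over all genes tested, 33.3% and 34.7% were higher by the same test. CHGA and STMN2 passed the low count filter only through the SAHA group in both lines, and such genes had to differ. The summed level of all 8 of these markers was 77.97 to 106.3 CPM (counts-per-million, TMM-scaled) in H1299 with DMSO and 307.3 to 379.5 CPM with SAHA. In H1703 it was 81.76 to 303.9 CPM and 495.5 to 681.4 CPM. INSM1, STMN2 and ELAVL4 were at 0 in both DMSO groups. Schwann and glial markers, whose cells carry NGFR in nerve, stayed between 5.6 and 14.92 CPM over 7 genes, with SOX10 at 0 in all 12 libraries. The 7 fibroblast and endothelial markers summed to 2.01 to 3.143 CPM in H1299 with DMSO and 39.41 to 52.39 CPM with SAHA, and to 58.4 to 68.01 CPM and 65.53 to 73.87 CPM in H1703. The 6 immune markers summed to 20.73 to 42.56 CPM and 17.39 to 20.15 CPM in H1299, and to 27.3 to 47.17 CPM and 74.96 to 83.53 CPM in H1703. The 6 epithelial markers summed to 589.8 to 613.4 CPM and 1356 to 1584 CPM in H1299, and to 3979 to 4436 CPM and 2950 to 3412 CPM in H1703. The part of these values in the changes below was not tested. In bulk RNA, a change in the number of expressing cells and a change in RNA per cell cannot be told apart.

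With SAHA, NGFR went from a trace to the highest level of the 8 per gene length in both lines. RET, SORT1 and BDNF were also higher in both, as was NTRK2 at few counts. NTRK3 was lower in H1703, where it was abundant, and appeared at a low level in H1299, where it had no count. GFRA1 was lower in H1703. In H1299, 5 of the 7 members that could be tested were called higher by edgeR's quasi-likelihood test (adjusted p below 0.05) and 0 lower, where 63.8% of all 17277 genes tested were called, 33.3% higher and 30.4% lower. In H1703, 5 of 7 were called higher and 2 lower, where 67.4% of 17273 genes were called, 34.7% higher and 32.6% lower. Nothing is read from the members' counts, because the members were chosen on these comparisons. RET and NTRK3 in H1299, and NTRK2 and RET in H1703, passed the low count filter only through the SAHA group. NTRK2 in H1299 and GDNF in H1703 did not pass it.

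**Figure D1:**
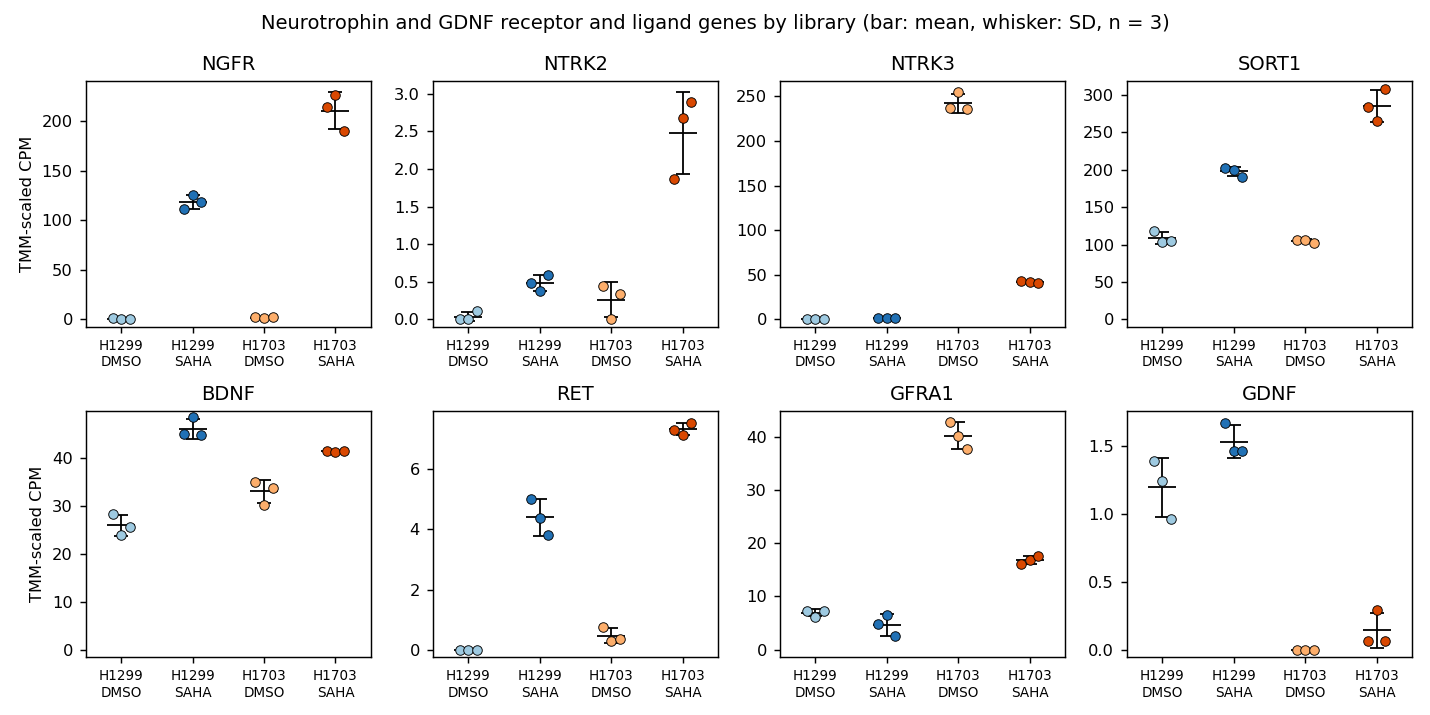
TMM-scaled CPM of each member gene (vertical axis, linear, a separate scale per gene) in the 12 libraries; points are libraries, the bar is the mean of 3 and the whisker its SD. The 3 H1703 SAHA libraries sit highest for NGFR, NTRK2, SORT1 and RET, and the 3 H1703 DMSO libraries sit highest for NTRK3 and GFRA1.

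NGFR (17:49495293-49515017, GRCh38) encodes the p75 receptor. In H1299 it had 15, 11 and 14 counts with DMSO and 1867, 1969 and 2014 with SAHA. H1703 gave 35, 24 and 29 counts with DMSO and 3218, 3903 and 2897 with SAHA. The DMSO libraries were all low and the SAHA libraries all high, with a wide gap between them in both lines. The level was 0.783 ± 0.129 CPM (SD, n = 3) against 118 ± 6.76 CPM in H1299, a log2 fold change of 7.17 ± 0.14 (SE), and the ratio of mean CPM was 151. In H1703 it was 1.88 ± 0.429 against 210.5 ± 18.5 CPM, a log2 fold change of 6.83 ± 0.16, with a mean CPM ratio of 112. The difference between these changes was -0.41 ± 0.23 (log2, H1703 minus H1299). An antisense gene that overlaps NGFR, AC006487.1, had 0 counts in every DMSO library and 1 to 5 in the SAHA libraries. AC015656.1, which also overlaps, had 0 and 2 to 28. The labels disagree on whether the libraries kept strand, but these counts are small beside those of NGFR.

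NTRK2 (9:84668551-85027070), the TrkB gene, stayed near the limit of detection. In H1299 its counts were 0, 0 and 2 with DMSO and 8, 6 and 10 with SAHA, a ratio of 12.4 with a 95% exact counting interval from 3.07 to 108. In H1703 the counts were 7, 0 and 5 with DMSO and 28, 46 and 44 with SAHA. Every SAHA library was above every DMSO library in both lines. In H1703 the level was 0.264 ± 0.234 against 2.48 ± 0.541 CPM, a log2 fold change of 3.26 ± 0.58, with a mean CPM ratio of 9.40. Intervals of this kind cover counting error only.

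NTRK3 (15:87859751-88256768), the TrkC gene, differed most in kind between the lines. In H1299 it had 0 counts in all 3 DMSO libraries and 25, 26 and 21 with SAHA, which is at least 8.28-fold higher when 3 counts per library are taken as the floor. The SAHA level there was 1.46 ± 0.213 CPM. In H1703 it had 3710, 4363 and 3423 counts with DMSO and 651, 712 and 622 with SAHA. The groups lay far apart, this time with the SAHA libraries low. The level was 242 ± 10.7 against 41.9 ± 1.31 CPM, a log2 fold change of -2.51 ± 0.08, and mean CPM was 5.79-fold lower. Even so, NTRK3 remained far higher in H1703 with SAHA than in H1299 with SAHA. The overlapping gene NTRK3-AS1 had 10, 11 and 12 counts in H1703 with DMSO and 0 in the other 9 libraries.

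SORT1 (1:109309568-109397951), which encodes sortilin, was well expressed throughout. Its counts in H1299 were 1951, 1752 and 1845 with DMSO and 3380, 3153 and 3259 with SAHA. In H1703 they were 1660, 1828 and 1494 with DMSO and 4256, 4556 and 4687 with SAHA. No SAHA library came down to a DMSO library in either line. The level went from 109 ± 8.06 to 198 ± 5.97 CPM in H1299, a log2 fold change of 0.81 ± 0.08, with a mean CPM ratio of 1.82. It went from 105 ± 2.09 to 285 ± 21.7 CPM in H1703, a log2 fold change of 1.46 ± 0.08, with a mean CPM ratio of 2.72. The change was larger in H1703 by 0.58 ± 0.11 (log2).

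BDNF (11:27654893-27722058), the ligand of TrkB, had 468, 403 and 453 counts in H1299 with DMSO and 753, 764 and 766 with SAHA. The H1703 counts were 549, 518 and 491 with DMSO and 622, 711 and 631 with SAHA. The SAHA libraries were the higher ones in CPM in both lines, by a narrow margin in H1703. The level was 25.9 ± 2.25 against 46.1 ± 2.08 CPM in H1299, a log2 fold change of 0.78 ± 0.10, with a mean CPM ratio of 1.78. In H1703 it was 33.0 ± 2.50 against 41.4 ± 0.0823 CPM, a log2 fold change of 0.35 ± 0.09, with a mean CPM ratio of 1.25. The change was smaller in H1703, with a difference of -0.50 ± 0.13 (log2). The overlapping antisense gene BDNF-AS had 9 to 11 counts with DMSO and 10 to 26 with SAHA in H1299, and 2 to 10 and 15 to 23 in H1703.

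RET (10:43077027-43130351), the receptor kinase of the GDNF family, had 0 counts in all 3 H1299 DMSO libraries and 84, 69 and 65 with SAHA, at least 25.0-fold higher. H1703 gave 12, 5 and 5 counts with DMSO and 110, 123 and 115 with SAHA. The groups stood clear of each other in both lines. The SAHA level was 4.40 ± 0.606 CPM in H1299. In H1703 the level was 0.467 ± 0.260 against 7.34 ± 0.206 CPM, a log2 fold change of 3.98 ± 0.30, with a mean CPM ratio of 15.7. Without the first DMSO library of H1703 that log2 fold change was 4.51.

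GFRA1 (10:116056925-116273467), the co-receptor that presents GDNF to RET, went the other way. In H1703 it had 670, 688 and 549 counts with DMSO and 241, 289 and 268 with SAHA, all SAHA libraries being below all DMSO libraries. The level was 40.2 ± 2.51 against 16.8 ± 0.781 CPM, a log2 fold change of -1.24 ± 0.10, and mean CPM was 2.39-fold lower. In H1299 it had 121, 104 and 129 counts with DMSO and 81, 103 and 43 with SAHA. The H1299 groups overlapped, and the third SAHA library was the lowest. The level there was 6.92 ± 0.670 against 4.63 ± 2.02 CPM, a log2 fold change of -0.64 ± 0.30 that was not called. It was -0.97 and called lower without the second SAHA library.

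GDNF (5:37812677-37839686), the ligand itself, was scarce. In H1299 it had 23, 21 and 17 counts with DMSO and 28, 23 and 25 with SAHA, a log2 fold change of 0.30 ± 0.27 that was not called. The level was 1.20 ± 0.217 against 1.53 ± 0.122 CPM, and the CPM ranges did not meet. In H1703 it had 0 counts in every DMSO library and 1, 5 and 1 with SAHA. A fold cannot be given at that depth. GDNF-AS1, an overlapping antisense gene, had 2 to 5 counts in the H1299 libraries and 0 in those of H1703.

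To rank the members within a group, the deposited FPKM values, which are per gene length, were used. In H1299 with DMSO the order ran SORT1 at 7.93 FPKM, BDNF at 2.12, GFRA1 at 0.397, GDNF at 0.247 and NGFR at 0.173, then NTRK2 at 0.00137, with NTRK3 and RET listed at 0. With SAHA, NGFR led at 26.3 FPKM, ahead of SORT1 at 14.6 and BDNF at 3.81, then RET at 0.419, GDNF at 0.320, GFRA1 at 0.269, NTRK3 at 0.0507 and NTRK2 at 0.0175. The ranges over libraries met between GDNF and NGFR with DMSO, and between RET, GDNF and GFRA1 with SAHA, so those places are not settled. In H1703 with DMSO, NTRK3 led at 7.27 FPKM, followed by SORT1 at 6.71, BDNF at 2.36, GFRA1 at 2.01, NGFR at 0.362, RET at 0.0384 and NTRK2 at 0.00831, with GDNF listed at 0. With SAHA the order there was NGFR at 38.2, SORT1 at 17.1, BDNF at 2.78, NTRK3 at 1.18, GFRA1 at 0.792, RET at 0.568, NTRK2 at 0.0732 and GDNF at 0.0239. With DMSO the ranges of NTRK2 and GDNF met. NGFR, SORT1 and BDNF thus took the first 3 places in both lines under SAHA by FPKM, and the receptor kinases sat below them. These places rest on the gene lengths behind FPKM, 4.9 kb for NGFR, 14.82 kb for SORT1, 13.25 kb for BDNF and 31.49 kb for NTRK3. In CPM, SORT1 was above NGFR with SAHA, at 198 against 118 in H1299 and 285 against 210.5 in H1703. NTRK3 and BDNF were close in H1703 with SAHA, at 41.9 and 41.4 CPM.

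**Figure D2:**
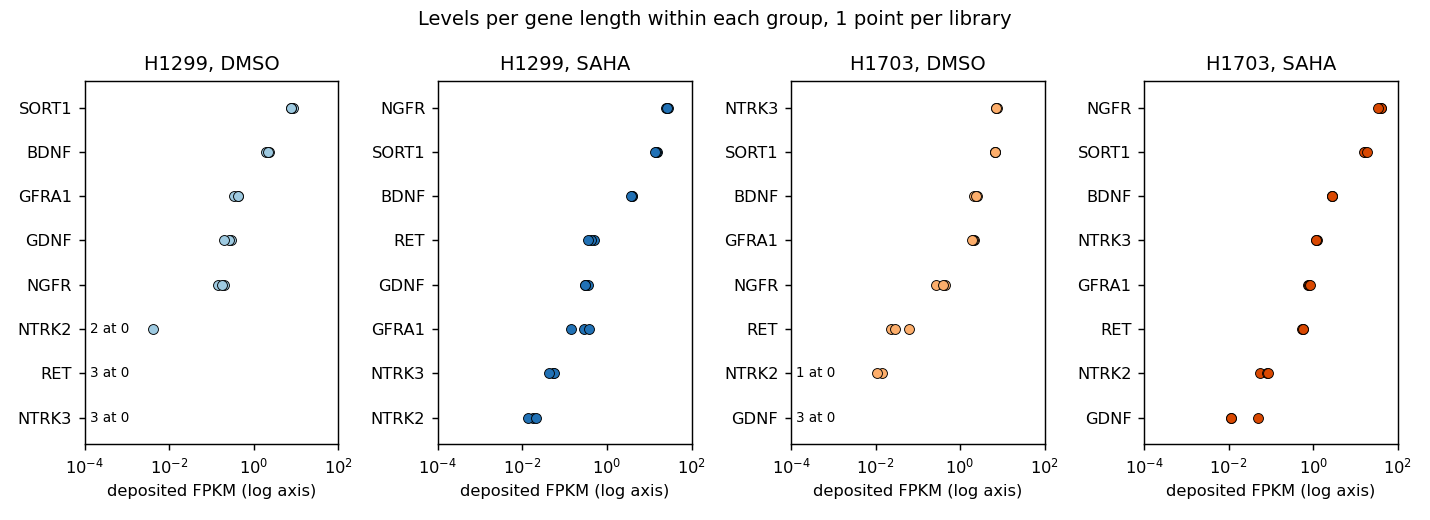
Deposited FPKM of the 8 genes on a log axis, ordered by mean within each of the 4 groups, with 1 point per library and libraries at 0 counted at the left edge. NGFR is at 26.3 and 38.2 FPKM in the SAHA groups and at 0.173 and 0.362 in the DMSO groups.

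Under DMSO the lines already differed in several members. Of the 8, 5 were called higher in H1703 and 1 lower, where 66.5% of 19105 genes were called, 34.3% higher and 32.2% lower. NTRK3 was at least 1375-fold higher in H1703, and RET at least 2.65-fold higher. By the ratio of mean CPM, GFRA1 was 5.81-fold higher in H1703 (fitted log2 fold change 2.54 ± 0.23), NGFR 2.40-fold higher (1.24 ± 0.21) and BDNF 1.27-fold higher (0.35 ± 0.09). GDNF was at least 6.27-fold lower in H1703. SORT1 overlapped between the lines, at -0.05 ± 0.08, as did NTRK2, at a ratio of 6.48 with an interval from 1.44 to 59.6. NTRK3, RET, NTRK2 and GDNF passed the low count filter here through a single line or through the SAHA libraries.

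Lists of the other genes of both pathways were written from known roles but with earlier results of these data known. They are therefore not independent of the data. They hold 130 genes in 7 lists. In H1299, 106 could be tested, of which 52 rose and 22 fell (edgeR, adjusted p below 0.05). In H1703, 57 rose and 23 fell of 108 tested. Over all genes, 33.3% were called higher and 30.4% lower in H1299, and 34.7% and 32.6% in H1703, and each list count below is to be read against these shares. Of the genes that rose, 14 in H1299 and 11 in H1703 passed the low count filter only through the SAHA group, and such genes had to differ. In H1299 and then H1703, they numbered 4 and 3 among other ligands and receptors, and 1 and 1 among adaptors. They numbered 1 and 0 among proteins that bind or cut p75, and 2 and 3 among precursor processing genes. Among brakes they numbered 1 and 0, among targets 3 and 3, and among regulators 2 and 1. The median log2 fold change over all 7 lists was 0.43 and 0.50, against 0.02 over all genes in each line.

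**Figure D3:**
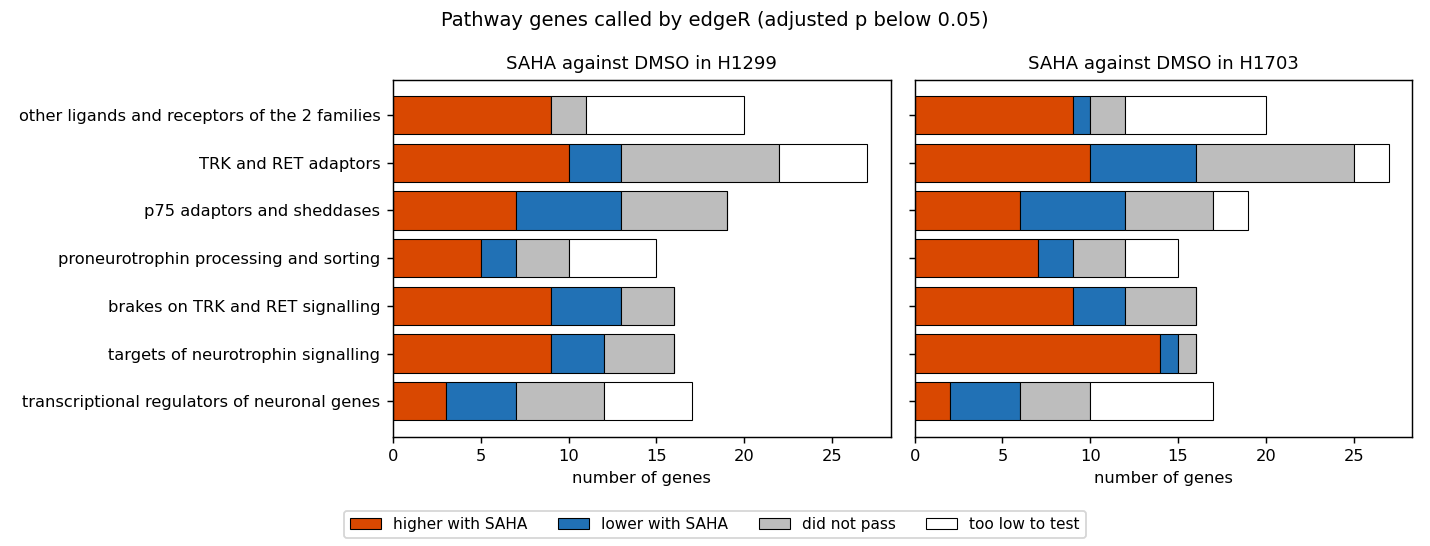
Number of genes of each pathway list (horizontal axis) that were higher with SAHA, lower with SAHA, did not pass, or were too low to test, for each line. The list of targets holds 9 higher genes in H1299 and 14 in H1703, and no gene of the list of other ligands and receptors is lower in H1299.

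Among the other ligands and receptors, 9 of 11 tested genes rose in H1299 and 0 fell, with a median log2 fold change of 2.19. In H1703, 9 of 12 rose and 1 fell, with a median of 1.12. GFRA2, LINGO1 and NCAM1 in H1299 and GFRA2 and NCAM1 in H1703 are among those that passed the low count filter only through the SAHA group, so no p is given for them there. GFRA2, the co-receptor for neurturin, had 0 counts in H1299 with DMSO and 17, 24 and 21 with SAHA, at least 7.13-fold higher. In H1703 it went from 7, 10 and 17 counts to 65, 76 and 60 (log2 2.55 ± 0.32). GFRA2, like RET and NTRK3, thus had no reads in H1299 with DMSO, and it was higher with SAHA in both lines. NRTN, the neurturin gene, rose in H1299 (log2 2.25 ± 0.27, edgeR, adjusted p = 7.74e-05) and in H1703 (2.13 ± 0.20, adjusted p = 9.21e-06).

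NCAM1, a cell adhesion molecule that can also bind GDNF, went from 2, 4 and 0 counts to 153, 170 and 149 in H1299 and from 4, 0 and 2 to 280, 326 and 267 in H1703. Its log2 fold change was 6.20 ± 0.42 in H1299 and 7.11 ± 0.37 in H1703. It is also a marker of neuroendocrine tumours, and it joined NGFR in being low under DMSO and high under SAHA in both lines. SDC3, a syndecan, rose by 1.88 ± 0.10 and 0.98 ± 0.08, and GDF15, a ligand that signals through RET with GFRAL, by 1.34 ± 0.25 and 1.02 ± 0.09 (log2, H1299 and then H1703). GFRAL was too low to test in both lines, as were the ligand genes NTF3 and ARTN. PSPN, the persephin gene, rose in H1299 by 0.54 ± 0.16 (edgeR, adjusted p = 0.0143) and in H1703 by 1.22 ± 0.21 (adjusted p = 0.000547). In H1299 its adjusted p by edgeR was 0.0542 without the second DMSO library and 0.0514 without the second SAHA library.

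LINGO1, part of the p75 complex with the Nogo receptor, had 0 counts in H1299 with DMSO and 59, 65 and 62 with SAHA, at least 21.4-fold higher. In H1703 it had 63, 36 and 48 counts with DMSO and 33, 85 and 89 with SAHA (log2 0.49 ± 0.38, edgeR, adjusted p = 0.286), and the groups overlapped. It passed there without the first SAHA library, at 0.80 (edgeR, adjusted p = 0.0386). RTN4R, the Nogo receptor, rose in H1299 (2.19 ± 0.13, edgeR, adjusted p = 1.30e-06) and fell in H1703 (-0.48 ± 0.14, adjusted p = 0.0111). SORL1, a sorting receptor related to sortilin, was at -0.26 ± 0.12 in H1299 (edgeR, adjusted p = 0.0850) and rose in H1703 (1.27 ± 0.12, adjusted p = 8.91e-06). Without the second SAHA library of H1299, SORL1 was at -0.38 there and passed (edgeR, adjusted p = 0.0157). SORCS2, another sortilin relative, was at 0.43 ± 0.21 in H1299 (edgeR, adjusted p = 0.0980) and rose in H1703 (0.72 ± 0.18, adjusted p = 0.00508). With all 12 libraries in 1 edgeR fit it passed in H1299 too, at 0.48 (adjusted p = 0.0487). NTF4, a second ligand of TrkB, was tested only in H1703, at -0.47 ± 0.35 (edgeR, adjusted p = 0.254).

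Adaptors that carry the signal from TRK and RET moved in both directions. In H1299, 10 of 22 rose and 3 fell, with a median of 0.25, and in H1703, 10 of 25 rose and 6 fell, with a median of 0.04. DOK4, a RET substrate, rose from 8.19 ± 1.14 to 34.2 ± 1.31 CPM in H1299 (log2 2.01 ± 0.13, edgeR, adjusted p = 1.95e-06) and by 0.69 ± 0.10 in H1703. SHC1, the adaptor that links the receptors to RAS, rose in H1703 from 296 ± 2.94 to 674 ± 19.3 CPM (1.20 ± 0.06, edgeR, adjusted p = 2.97e-07) and in H1299 by 0.52 ± 0.08. SOS2, an exchange factor for RAS, fell in both lines, by 1.00 ± 0.16 in H1299 and 0.76 ± 0.09 in H1703 (log2). PTPN11, which encodes the phosphatase SHP2, fell in H1299 from 315 ± 5.77 to 139 ± 13.3 CPM (-1.24 ± 0.09, edgeR, adjusted p = 3.49e-06). In H1703 it was at -0.23 ± 0.08 (edgeR, adjusted p = 0.0308), and the adjusted p rose to between 0.0585 and 0.0848 when the replicate 2 or replicate 3 DMSO library or the first or second SAHA library was left out, and was 0.0573 by DESeq2.

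Among the proteins that bind p75 or cut it, 7 of 19 rose and 6 fell in H1299 (median 0.10), and 6 of 17 rose and 6 fell in H1703 (median -0.07). MAGEH1, a MAGE family protein that binds p75, rose from 3.55 ± 0.588 to 34.6 ± 4.40 CPM in H1299 (3.23 ± 0.16, edgeR, adjusted p = 5.89e-07) and by 1.19 ± 0.14 in H1703. IRAK1, a kinase also known from interleukin signalling, fell from 727 ± 59.2 to 167 ± 25.6 CPM in H1299 (-2.17 ± 0.12, edgeR, adjusted p = 1.01e-06). In H1703 it fell from 263 ± 14.1 to 45.3 ± 0.375 CPM (-2.52 ± 0.08, edgeR, adjusted p = 1.24e-08).

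Genes that cut or sort neurotrophin precursors rose in 5 of 10 and fell in 2 in H1299 (median 0.15), and rose in 7 of 12 and fell in 2 in H1703 (median 1.29). PLAT, tissue plasminogen activator, rose by 3.33 ± 0.13 in H1703 (edgeR, adjusted p = 3.63e-08) and by 0.57 ± 0.11 in H1299 (adjusted p = 0.00180). MMP9, a matrix protease, rose by 1.32 ± 0.23 in H1299. In H1703 it was at 2.79 ± 0.44, but it passed the low count filter there only through the SAHA group. CADPS2, which acts in BDNF release, fell in H1299 by 0.68 ± 0.13 (log2) and was at -0.17 ± 0.32 in H1703 (edgeR, adjusted p = 0.652). PCSK6, a proprotein convertase, fell in H1703 from 19.1 ± 2.00 to 5.68 ± 0.604 CPM (-1.73 ± 0.14, edgeR, adjusted p = 4.73e-06) and was at -0.41 ± 0.28 in H1299 (adjusted p = 0.225).

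The genes that restrain TRK and RET signalling rose in 9 of 16 in each line and fell in 4 in H1299 and 3 in H1703, with medians of 0.58 and 0.56. DUSP5, a phosphatase of ERK, rose from 116 ± 9.34 to 257 ± 12.6 CPM in H1299 (1.10 ± 0.09, edgeR, adjusted p = 6.42e-06) and from 68.2 ± 2.27 to 373 ± 21.4 CPM in H1703 (2.47 ± 0.08, adjusted p = 1.42e-08). SPRY4, an inhibitor of receptor kinase signalling, fell in H1299 (-1.06 ± 0.09, edgeR, adjusted p = 1.28e-05) and rose in H1703 (1.00 ± 0.11, adjusted p = 2.60e-05). PTPRJ, a receptor phosphatase, did the reverse, with 0.63 ± 0.10 in H1299 (edgeR, adjusted p = 0.000423) and -0.83 ± 0.07 in H1703 (adjusted p = 5.87e-06).

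Genes known as targets of neurotrophin signalling, many of which respond to other growth factors too, rose in 9 of 16 and fell in 3 in H1299 (median 1.27), and rose in 14 of 16 and fell in 1 in H1703 (median 1.55). VGF, a secreted neuropeptide precursor, rose from 114 ± 13.2 to 2678 ± 335 CPM in H1299 (4.50 ± 0.14, edgeR, adjusted p = 8.06e-08). In H1703 it rose from 3.88 ± 0.144 to 486 ± 35.9 CPM (6.98 ± 0.10, edgeR, adjusted p = 9.83e-10). KLF10, a transcription factor, fell by 0.89 ± 0.10 in H1299 and 1.55 ± 0.09 in H1703 (log2), the other way from most of the list.

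Of the regulators of neuronal genes, 3 of 12 rose and 4 fell in H1299 (median -0.18), and 2 of 10 rose and 4 fell in H1703 (median -0.52). REST encodes a repressor that keeps neuronal genes silent outside neurons. It had 915, 920 and 511 counts in H1299 with DMSO and 184, 439 and 434 with SAHA, a change of -1.16 ± 0.43 that did not pass (edgeR, adjusted p = 0.0624). Without the third DMSO library it was -1.44 and passed (edgeR, adjusted p = 0.0301), as it did by DESeq2 (adjusted p = 0.0319) and with all 12 libraries in 1 edgeR fit (adjusted p = 0.0145). In H1703 it fell from 708, 822 and 781 counts to 492, 519 and 551 (-0.55 ± 0.11, edgeR, adjusted p = 0.00135), but not with all 12 libraries in 1 fit (adjusted p = 0.155). In both lines every SAHA library was below every DMSO library in counts. RCOR1, a partner of REST, was at -0.11 ± 0.10 in H1299 and at 0.26 ± 0.08 in H1703 (edgeR, adjusted p = 0.0198), where the adjusted p was 0.0661 without the first and 0.0892 without the second DMSO library. ATF1, a relative of CREB, fell by 1.73 ± 0.15 and 1.11 ± 0.12 (log2, H1299 and then H1703).

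**Figure D4:**
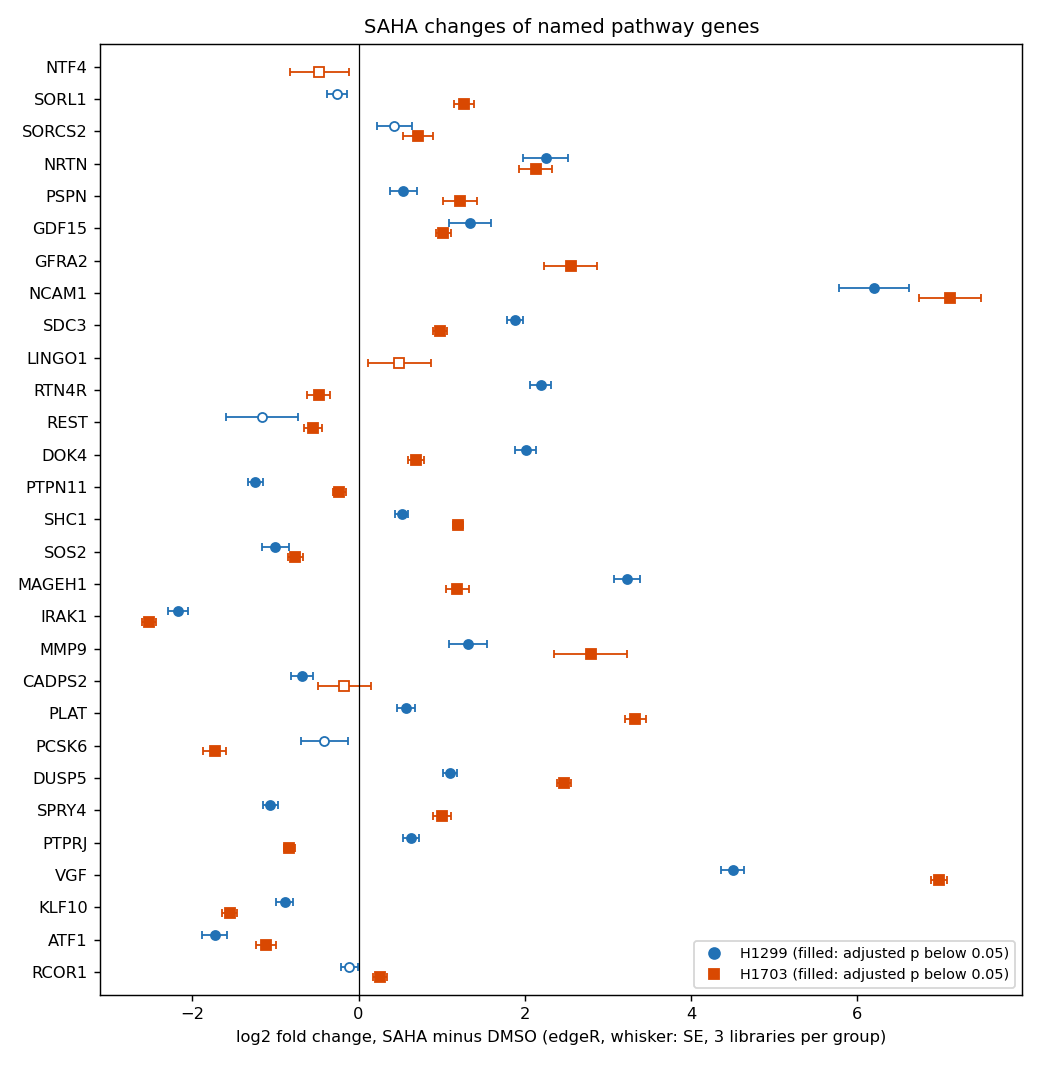
Log2 fold change of the named pathway genes with SAHA (horizontal axis) in H1299 (circles) and H1703 (squares), with SE as whiskers and filled symbols for an adjusted p below 0.05; values against 3 or fewer DMSO counts in all are left out. VGF and NCAM1 lie furthest to the right, and RTN4R, SPRY4 and PTPRJ have filled symbols on opposite sides of 0. SORL1 and RCOR1 do too, but with an open symbol in H1299. NCAM1 in both lines, and GFRA2 and MMP9 in H1703, passed the low count filter only through the SAHA group. Their filled symbols are therefore not to be read as a test.

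For each member, the most similar protein-coding genes were sought among 12311 genes by Pearson r of log2 CPM over the 12 libraries, which share their 4 groups, so that r mainly follows the 4 group means. NGFR was most like SNCB, the beta-synuclein gene (r = 0.9983), which went from 0.782 to 13.6 CPM in H1299 and from 1.48 to 17.2 CPM in H1703. Next came MARCH9 (r = 0.9964). NTRK3 was most like DAPK1 (r = 0.9979), at 0 and 1.25 CPM in H1299 and 89.6 and 28.1 CPM in H1703, and like INHBB (r = 0.9976). DAPK1 and INHBB, like NTRK3, were thus at 0 in H1299 with DMSO and lower with SAHA in H1703.

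RET was most like SPTBN4 (r = 0.9944) and KIF1A (r = 0.9918), a neuronal transport motor that went from 0.253 to 82.3 CPM in H1299 and from 1.96 to 136 CPM in H1703. SORT1 was most like FNDC1 (r = 0.9918) and MFSD1 (r = 0.9918), and GFRA1 like MUC1 (r = 0.9963) and MAP3K21 (r = 0.9855). BDNF was most like SHC2 (r = 0.9853), which is on the list of adaptors, and DLX4 (r = 0.9803). GDNF was most like SLC13A3 (r = 0.9904) and SYF2 (r = 0.9893), and NTRK2 like RAB29 (r = 0.9559) and METTL23 (r = 0.9555). NTRK2 had the lowest r of the 8 and also few reads, at most 46 counts in a library.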

How the data were processed

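Polyadenylated RNA of 12 libraries was sequenced as paired ends, per the labels' protocols. The authors deposited 1 table per line with raw counts and FPKM values per gene, per the file headers. The deposited counts are whole numbers without scaling. FPKM as deposited is the count over the column total and over 1 length per gene, to within 1% for 100.0% of 304680 values. GRCh38, HISAT2 2.1.0, StringTie 1.3.3b, edgeR 3.30.3, fastp and FastQC 0.11.9 appear in the submitters' processing notes; for the counting tool nothing is given in the sources used here. Control columns were taken as DMSO because each line has only that other group. Replicates differed beyond sampling noise in every group (chi-square over degrees of freedom 9.96 to 22.29).

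The count test was the quasi-likelihood test of edgeR 4.0.16 under R 4.3.3 (filterByExpr at minimum count 10 and total 15, TMM, robust fit, Benjamini-Hochberg over all genes tested, called at adjusted p below 0.05). Each line was fitted alone on 6 libraries, and the lines and their SAHA effects were compared in 1 fit over 12. The code was tested on simulated data. Levels are TMM-scaled counts-per-million (CPM). A group at 0 gives a fold bound against 3 counts per library, and 1 to 3 counts a ratio with a 95% exact interval. The members and the lists were chosen with earlier results of these data known. Named were all members, every tested gene of the other ligands and receptors, REST, and from each further list the called gene with the smallest adjusted p per line and direction whose log2 CPM averaged at least 1. Some genes taken by the rule are not reported here, but list counts include them. For likeness, the 2 protein-coding genes with the highest r (log2 CPM, prior count 2) were taken. The labels give each replicate number as a batch, so numbers pair the samples, although deviations of same-numbered libraries correlated at -0.073 to 0.054. Alternatives were RLE size factors, DESeq2 1.42.0, no low count filter, a replicate block, leaving out each library, and 1 fit for all. Promoter windows came from RefSeq for 7 of 8 members.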

Additional observations from a re-analysis of the deposited data

Results flagged for a closer look

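For 15 reported pathway genes the SAHA effect differed between the lines in the edgeR interaction test over 12 libraries. Many reported genes were named for their calls within a line, so nothing is read from the number 15. Of all 113 list genes tested, 25 were called higher and 26 lower. Over all genes tested, 34.9% were called, 13.7% higher and 21.2% lower. GFRA2 and LINGO1, which were at 0 in H1299 with DMSO, are not counted because their fitted values depend on the prior count. Values are log2, H1703 minus H1299, with edgeR's adjusted p. Among the receptors, RTN4R differed by -2.74 ± 0.18 (adjusted p = 8.30e-08), SORL1 by 1.46 ± 0.17 (adjusted p = 1.63e-05) and SDC3 by -0.97 ± 0.13 (adjusted p = 4.55e-05). Among the adaptors and the binders of p75, MAGEH1 differed by -2.10 ± 0.22 (adjusted p = 4.94e-06), DOK4 by -1.39 ± 0.16 (adjusted p = 1.01e-05), PTPN11 by 0.94 ± 0.12 (adjusted p = 3.11e-05) and SHC1 by 0.61 ± 0.10 (adjusted p = 0.000221). IRAK1 differed by -0.41 ± 0.14 (adjusted p = 0.0376), which was lost by DESeq2 (adjusted p = 0.0872), with RLE size factors (0.0807) and without any 1 of 8 libraries (0.0561 to 0.0977).

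Among the processing enzymes, PLAT differed by 2.69 ± 0.16 (adjusted p = 3.28e-08) and PCSK6 by -1.40 ± 0.29 (adjusted p = 0.00173) in the edgeR test. Among the brakes, SPRY4 differed by 1.99 ± 0.13 (adjusted p = 5.78e-08), PTPRJ by -1.52 ± 0.11 (adjusted p = 1.89e-07) and DUSP5 by 1.3 ± 0.11 (adjusted p = 8.60e-07). Among the targets, VGF differed by 2.41 ± 0.16 (adjusted p = 9.40e-08) and KLF10 by -0.73 ± 0.14 (adjusted p = 0.000986). NTRK3 went from 0 counts to 21 to 26 in the H1299 libraries and changed by -2.51 (log2) in H1703, and this difference was not tested because NTRK3 was chosen for it.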

How the results depend on the processing

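No result reported here changed direction under the alternatives run. From deposited FPKM, where totals are not TMM-scaled, the log2 ratio of group means in H1703 was lower for each member with a ratio. It was -2.62 against -2.53 for NTRK3, 0.24 against 0.33 for BDNF, 1.35 against 1.44 for SORT1 and -1.35 against -1.26 for GFRA1. NGFR (6.72 against 6.81), NTRK2 (3.14 against 3.23) and RET (3.89 against 3.97) shifted by a like amount. Members called lower in H1299 numbered 0 to 1 when 1 library was left out, and 1 with all 12 libraries in 1 fit; the gene was GFRA1. Other counts over all genes, over all pathway lists together and over the members stayed within 1.5 times. Of the single lists given for SAHA, regulators called higher in H1703 went from 2 to 4 with all 12 libraries in 1 fit, and other ligands and receptors called lower in H1299 from 0 to 1 (SORL1) without the second SAHA library. With the replicate block that the labels' pairing asks for, 10616 genes were called in H1299, 11322 in H1703, 12467 between the lines under DMSO and 6254 for the difference of the SAHA effect, against 11016, 11641, 12712 and 6672 without it. It changed no call of a gene reported here. Members at 3 or fewer counts in a group have no fitted value to compare. Counting error limits NTRK2, GDNF and, under DMSO, RET. The second SAHA library of H1299 decided GFRA1, SORL1 and, with the second DMSO library, PSPN there.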
